A study of Mus with 2 samples.

Results

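The genes examined here encode 10 proteins that neutrophils store in their granules or carry at very high level: Elane, Mpo, Prtn3, Ctsg, Ngp, Camp, Ltf, Lcn2, S100a8 and S100a9. They were chosen by symbol, and each of the 10 matched 1 of the 27998 genes in the count matrices. The study asked what the transcriptional regulator ID2 does in adult hematopoietic stem cells (HSCs) of the mouse. In each genotype, marrow of the tibia and fibula from 5 mice aged 8 to 12 weeks was pooled, 1000 LSK FLT3- CD150+ CD48- cells (the immunophenotype of HSCs, lineage-negative Sca1+ c-Kit+ cells selected further on 3 surface proteins) were sorted, and their RNA was captured on the 10x Genomics Chromium as 1 library per genotype. Both groups carried the Mx1-Cre transgene and were given polyinosinic:polycytidylic acid (pIpC), which switches this recombinase on in interferon-responsive cells, so that deletion was not restricted to HSCs. The control group was Mx1-Cre Id2+/+ and the other Mx1-Cre Id2Δ/Δ, in which Id2 is deleted. One clause of the label text gives Id2+/+ bones as the source of the Id2Δ/Δ sample, whereas its title and genotype field give the deletion, and these set the group.

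Neutrophils build their granules in sequence as they mature in the marrow. Promyelocytes make the serine proteases and myeloperoxidase of primary (azurophil) granules, myelocytes and metamyelocytes then make the antimicrobial proteins of secondary (specific) granules, and S100A8 and S100A9, which pair to form calprotectin, fill the cytosol of the later cells. Transcripts of these genes are therefore used to place a granulocyte along its maturation, and because they are so abundant they are often found as free RNA in droplet libraries of marrow.

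Positions are those of the RefSeq annotation of GRCm38.p6, which is the mm10 build named in the submitters' processing notes, and each gene is annotated as protein coding. Of the primary granule genes, Elane (ENSMUSG00000020125), which encodes neutrophil elastase, lies at chr10:79886312-79888216. Prtn3 (ENSMUSG00000057729), the gene of proteinase 3, lies at chr10:79879667-79883174, and 3138 bases separate the annotated genes. Mpo (ENSMUSG00000009350), the gene of myeloperoxidase, is at chr11:87793784-87804412, and Ctsg (ENSMUSG00000040314), the gene of cathepsin G, is at chr14:56099885-56102574. The secondary granule genes Camp (ENSMUSG00000038357), which encodes the cathelicidin, Ngp (ENSMUSG00000032484), which encodes neutrophilic granule protein, and Ltf (ENSMUSG00000032496), which encodes lactoferrin, share a chromosome, at chr9:109847377-109849456, chr9:110419808-110423012 and chr9:111019292-111042766. Lcn2 (ENSMUSG00000026822), the gene of the siderophore-binding lipocalin 2, is at chr2:32384637-32387739. S100a8 (ENSMUSG00000056054) at chr3:90669071-90670034 and S100a9 (ENSMUSG00000056071) at chr3:90692630-90695721 are 22596 bases apart.

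The Id2+/+ library held 8612217 unique molecular identifiers (UMIs, 1 for each captured molecule) and the Id2Δ/Δ library 17140713. With 4393 and 6177 UMIs as the thresholds for a cell, 333 and 625 cells were used, where the labels give 383 and 686 analysed cells, and 1 cell barcode occurred in both libraries. Levels below are a gene's UMIs per 1000000 UMIs of the barcodes named (CPM), with exact 95% intervals for counting error alone. There was 1 library per genotype, so no difference between genotypes has a replicate check and none was tested. Id2 itself had 29 UMIs in the Id2+/+ neutrophil-like cells (62.8 CPM, 42.1 to 90.2) and 19 in the retained cells (13 CPM, 7.83 to 20.3). It had 0 in both kinds of Id2Δ/Δ cell, which allows up to 4.13 and 0.832 CPM at 3 counts, and 4 UMIs in a single Id2Δ/Δ barcode under the cell threshold.

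Cells were clustered without the 10 members. One cluster of 67 cells, 27 of them Id2+/+ and 40 Id2Δ/Δ, passed 17 of 25 neutrophil markers that are not members and is called neutrophil-like. These markers summed to 12536 CPM in the Id2+/+ and 17671 CPM in the Id2Δ/Δ neutrophil-like cells, against 972 and 909 CPM in the cells retained as HSCs, whereas HSC markers summed to 184 and 107 CPM against 1852 and 1433 CPM. Both marker lists also entered the naming of the cluster, so these sums describe it and do not test its name. The study itself reported and removed a few contaminating neutrophils and red blood cells. The label of sorted HSCs thus did not hold for every captured cell. The retained cells numbered 206 and 364. Clusters called erythroid-like held 44 and 169 cells and those called megakaryocyte-like 56 and 52. HSC markers summed to 199 and 161 CPM in the erythroid-like and 1282 and 978 CPM in the megakaryocyte-like cells. The study describes platelet-biased HSCs that express Pf4 and Vwf, so the name megakaryocyte-like does not place these cells outside the HSCs. Barcodes of 1 to 100 UMIs, taken as droplets without a cell, numbered 177395 and 254023 and carried 46.3% of all Id2+/+ UMIs and 22.4% of all Id2Δ/Δ UMIs.

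Of the kinds of cell, the neutrophil-like cells had the highest level of every member in both libraries, and the 10 made up 7.11% of their UMIs in Id2+/+ and 9.12% in Id2Δ/Δ. Elane was the highest of the 10 in both, at 21550 CPM in Id2+/+ and 24639 CPM in Id2Δ/Δ. S100a8 followed at 15550 and 23011 CPM, and then Mpo at 10772 and 11319 CPM. Ltf was the lowest member in Id2+/+ at 262 CPM and Lcn2 in Id2Δ/Δ at 527 CPM. Each UMI is 1 molecule tagged at its end, so these levels do not scale with transcript length. The 27 and 40 neutrophil-like cells held 47.5% and 66.3% of all member UMIs of their libraries.

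**Figure D1:**
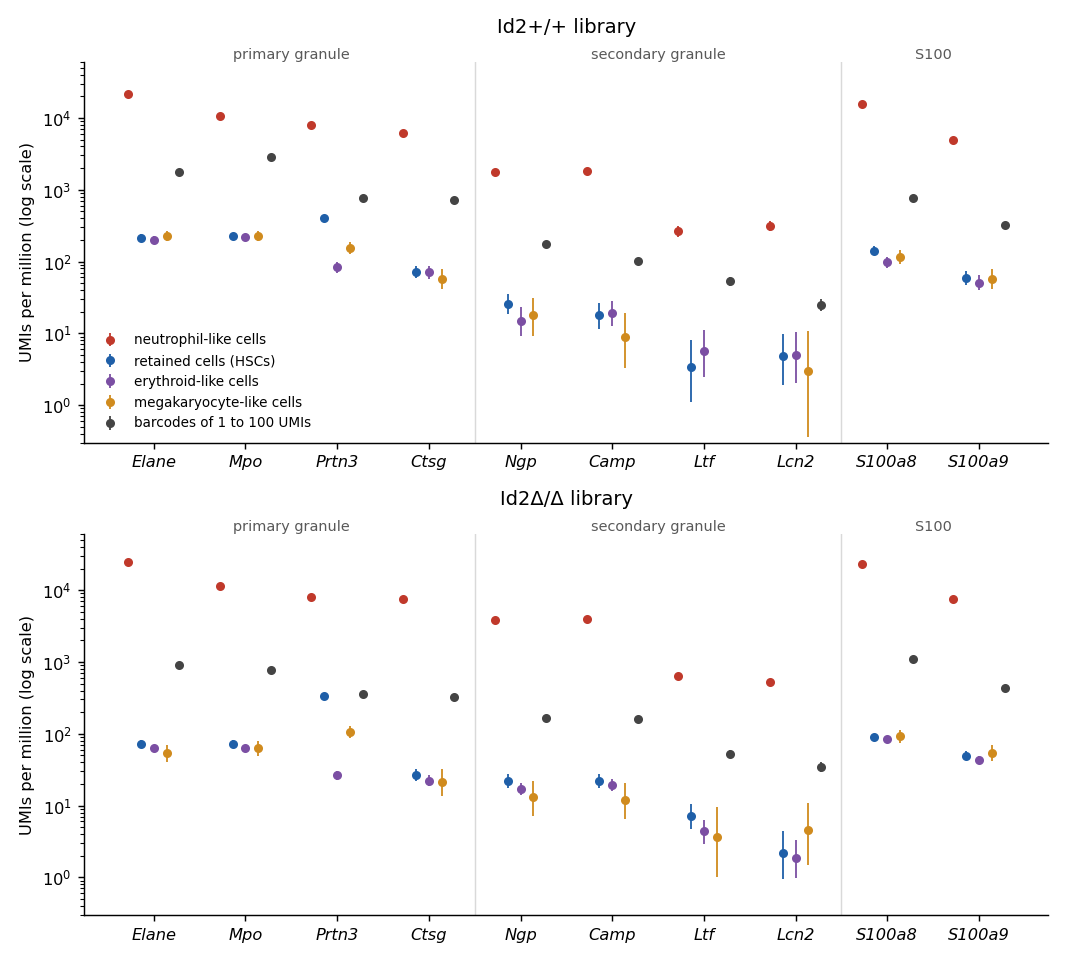
Level of each member in CPM (log scale) in neutrophil-like, retained, erythroid-like and megakaryocyte-like cells and in barcodes of 1 to 100 UMIs, with 1 panel per library and bars for exact 95% Poisson intervals (Ltf, with 0 UMIs in Id2+/+ megakaryocyte-like cells, is not drawn there). Every member is highest in the neutrophil-like cells, and in the cells of other kinds Elane lies at like levels (200 to 229 CPM in Id2+/+ and 53.7 to 72.4 CPM in Id2Δ/Δ), whereas Prtn3 is higher in the retained cells (400 and 341 CPM) than in the erythroid-like cells (82.9 and 26.3 CPM).

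Within the neutrophil-like cells the members split the cells into a large and a small group. In 63 of the 67 cells more UMIs came from primary than from secondary granule genes, and in 4 cells, 1 of 27 in Id2+/+ (3.70%, 95% Clopper-Pearson interval 0.0937 to 19.0) and 3 of 40 in Id2Δ/Δ (7.5%, 1.57 to 20.4), the reverse held. The 4 secondary-rich cells were set apart on these counts after the values were seen, so the split is a description.

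In the 26 Id2+/+ cells of the larger group, primary granule genes took from 3.62% to 5.73% of a cell's UMIs, with a median of 4.74%. Elane ranged from 1.30% to 3.10% (median 2.19%), Mpo from 0.543% to 1.59% (median 1.12%), Prtn3 from 0.593% to 1.44% (median 0.786%) and Ctsg from 0.228% to 0.981% (median 0.580%). The proteases and myeloperoxidase were thus present in every one of these cells, each within a range of about one order of magnitude. In the 37 Id2Δ/Δ cells the median primary share was 5.64%, with medians of 2.82% for Elane, 1.21% for Mpo, 0.878% for Prtn3 and 0.837% for Ctsg. The lowest Id2Δ/Δ cell had 0.0126% and the highest 7.37%, so the range was wider at its lower end than in Id2+/+ and the cells of both libraries overlapped. The 37 cells included a pair with high monocyte markers and few member UMIs, described below.

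In the 26 Id2+/+ cells S100a8 and S100a9 spanned a wider range than the primary granule genes. S100a8 ran from 0.0352% to 2.85% of UMIs in the 26 Id2+/+ cells (median 1.19%) and from 0.0121% to 3.65% in the 37 Id2Δ/Δ cells (median 1.34%). S100a9 ran from 0.00420% to 1.43% (median 0.161%) and from 0% to 1.67% (median 0.105%). Secondary granule genes were sparse in these 63 cells, with a median of 0.0110% of UMIs and at most 0.620%. Camp had a UMI in 35 of the 63 cells, Ngp in 28, Lcn2 in 22 and Ltf in 5.

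The 4 secondary-rich cells had the opposite make-up. The Id2+/+ cell, of 11352 UMIs, took 15% of them from secondary granule genes, 29.6% from the S100 genes and 0.0793% from primary granule genes. In the 3 Id2Δ/Δ cells, of 9811, 17461 and 10912 UMIs, the secondary share was 15.1%, 15.5% and 19.6%, the S100 share 30.5%, 24.2% and 27.5% and the primary share 0.0204%, 0.126% and 0.0183%. The 10 members together made up between 39.8% and 47.2% of all molecules of each of these 4 cells. Single genes ranged from 6.42% to 8.99% for Ngp, from 5.18% to 8.25% for Camp, from 1.03% to 1.49% for Ltf and from 0.596% to 1.42% for Lcn2. Ctsg had 0 UMIs in all 4 cells, and Mpo had 0 in the 3 Id2Δ/Δ cells.

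**Figure D2:**
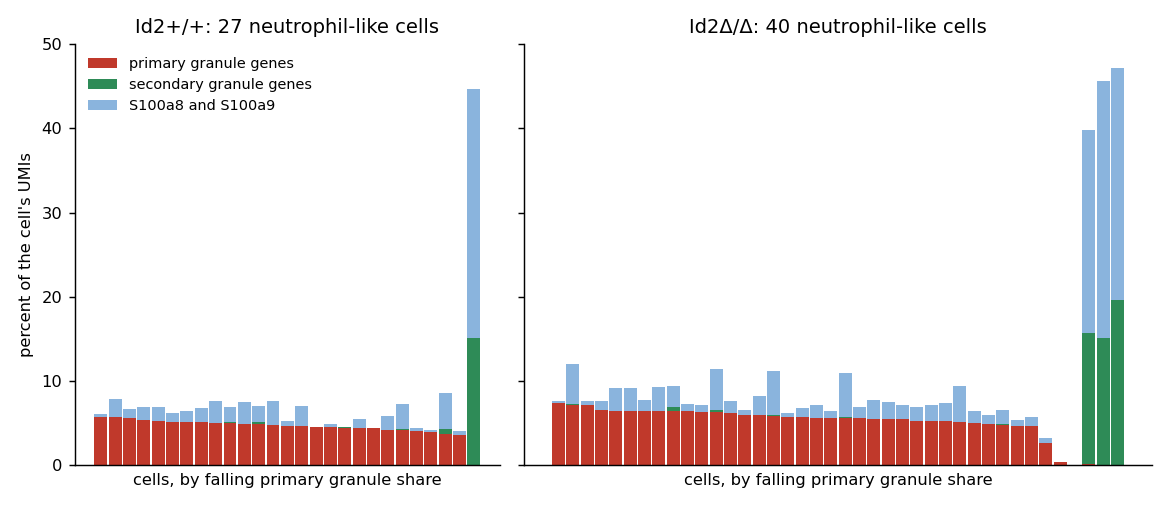
Percent of each neutrophil-like cell's UMIs from primary granule genes, secondary granule genes and S100a8 with S100a9, stacked as 1 bar per cell and ordered by falling primary share, with 27 Id2+/+ cells on the left and 40 Id2Δ/Δ cells on the right. The secondary-rich cells, 1 in Id2+/+ and 3 in Id2Δ/Δ, stand last in each panel with 39.8% to 47.2% of their UMIs from the members, nearly all of it secondary granule and S100 genes.

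A few cells therefore carried nearly all molecules of the secondary granule genes. The single Id2+/+ cell held 92.7% of the Ngp UMIs of its library's neutrophil-like cells, 83.1% of Camp, 99.2% of Ltf and 89.7% of Lcn2. The 3 Id2Δ/Δ cells held 98.9%, 93.5%, 99.1% and 96.3%. For S100a8 the shares were 29.8% and 40.1%, for S100a9 53.6% and 63.5%, and for the primary granule genes 0.0419% and 0.0694%. S100a9 was thus more concentrated in the secondary-rich cells than S100a8 in both libraries.

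Over the 67 cells, which share their libraries and differ in depth, the levels of S100a8 and S100a9 ran together (Spearman's rho = 0.912), and so, less closely, did pairs of primary granule genes (rho from 0.415 to 0.517) and Ngp with Camp (rho = 0.536). Summed secondary granule and S100 levels had a rho of 0.549. The summed primary level had a rho of -0.06 with the secondary and 0.0806 with the S100 level. Over the 63 cells without the secondary-rich ones these were 0.119 and 0.287, that of secondary with S100 was 0.458, S100a8 with S100a9 0.894, Ngp with Camp 0.428, and pairs of primary granule genes 0.297 to 0.419. Of 5057 genes outside the members, those most like the primary sum were Ms4a3, a gene of granulocyte progenitors (rho = 0.670), Nkg7 (0.653) and Srgn (0.637), the gene of serglycin, the proteoglycan that packs granule proteases. Those most like the secondary sum were Pglyrp1 (0.544), the gene of a peptidoglycan-binding granule protein, Wfdc21 (0.502) and Ptpre (0.487).

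Genes outside the members, named here after their values were seen, also differed between the secondary-rich cells and the other 63. Lyz2 (lysozyme) was at 17442 CPM in the 4 cells and 876 CPM in the 63, a ratio of 19.9 (18.2 to 21.8). Of the 997 Lyz2 UMIs in the 63 cells 686 lay in a pair with high monocyte markers, described below, and without this pair Lyz2 was at 279 CPM in 61 cells and the ratio was 62.5 (54.8 to 71.4). Chil3, the gene of a chitinase-like protein of maturing neutrophils, was at 12799 and 124 CPM, and Cd177, a neutrophil surface protein, at 747 and 7.90 CPM. In the other direction, Srgn was at 20.2 CPM (1 UMI) in the 4 cells and 3742 CPM in the 63, and Ms4a3 at 343 and 3160 CPM. Cebpe, the transcription factor of the promyelocyte to myelocyte step, was at 1171 and 416 CPM (ratio 2.81, 2.10 to 3.70). Mmp8 and Mmp9, genes of neutrophil metalloproteinases, had 0 UMIs in all 67 cells.

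Barcodes under the cell threshold added a further set of member-rich droplets, all in the Id2Δ/Δ library. Among barcodes over 100 UMIs and under the threshold, members made up at least 20% of UMIs in 0 of 1610 in Id2+/+ and 11 of 2231 in Id2Δ/Δ, and at least 10% in 5 and 17. The thresholds differ, and 2 of the 11 barcodes, of 4398 and 5254 UMIs, lay over the Id2+/+ threshold, so that with 4393 UMIs in both libraries there were 0 and 9 such barcodes under it and 1 and 5 over it. The 11 barcodes had from 352 to 5254 UMIs and held 82.9% of the member UMIs of their class. Over the threshold, the cells with at least 20% were the secondary-rich cells, 1 and 3.

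The 11 barcodes fell into a set of 8 and a set of 3. In the 8, secondary granule genes took from 10.4% to 16.6% of UMIs (median 12.3%), S100 genes from 24.4% to 36.5% (median 31.2%) and primary granule genes at most 0.235%. As in the 4 secondary-rich cells, secondary granule and S100 genes far exceeded primary granule genes, but 5 of the 8 had a secondary share of 10.4% to 12.7%, under the lowest of the 4 cells (15%), and Ngp was at most 6.01% against at least 6.42%. Other genes, named after their values were seen, differed: Mmp8 was at 1539 CPM (29 UMIs), Mmp9 at 1062 CPM (20 UMIs) and Ly6g, a surface protein of neutrophils, at 902 CPM (17 UMIs) in the 8 barcodes, against 0, 0 and 40.4 CPM in the 4 cells. In the 3, of 1040, 1142 and 1146 UMIs, S100 genes took 38.4%, 25.9% and 20.8%, secondary granule genes took at most 0.192% and Ngp, Camp and Ltf had 0 UMIs. S100a8 was at 210373 CPM in the 8 and 176983 CPM in the 3. Retnlg, a gene of mature neutrophils named here after its value was seen, had 62 UMIs in the 3 barcodes (18630 CPM, 14283 to 23883, with UMIs in 3 of 3) and 50 in the 8 (2654 CPM, 1970 to 3499, in 4 of 8), whereas the 4 cells had 5.

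**Figure D3:**
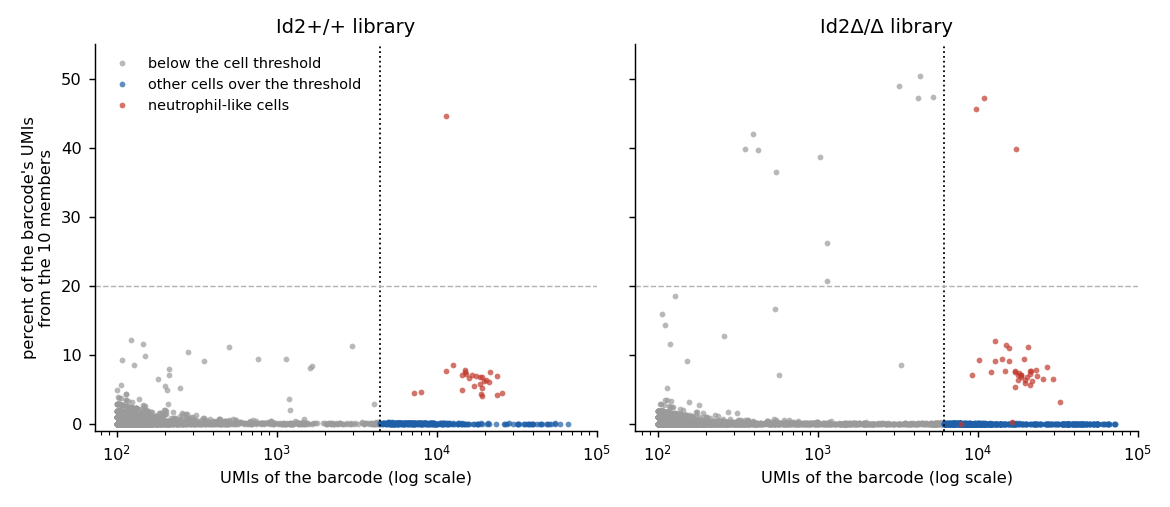
Percent of a barcode's UMIs that came from the 10 members (vertical axis) against the UMIs of the barcode (log scale), for barcodes over 100 UMIs of each library. The dotted line marks the cell threshold (4393 and 6177 UMIs) and the dashed line 20%; 1 Id2+/+ cell lies above it, against 3 cells and 11 barcodes under the threshold in Id2Δ/Δ.

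Between genotypes, all 10 members were at a higher level in the Id2Δ/Δ than in the Id2+/+ neutrophil-like cells, against 48.8% of the 5115 genes with at least 20 UMIs there. The median log2 ratio was 0.60 for the members and -0.01 for all genes. The members differed by group. The 4 primary granule genes together were at a ratio of 1.11 (1.09 to 1.13), with Prtn3 at 1.01 (0.970 to 1.05), Mpo at 1.05 (1.01 to 1.09), Elane at 1.14 (1.12 to 1.17) and Ctsg at 1.23 (1.18 to 1.29). The S100 genes together were at 1.5 (1.46 to 1.53), with S100a8 at 1.48 and S100a9 at 1.55. Without the secondary-rich cells the summed S100a9 ratio was 1.25 (1.16 to 1.35), but its median share per cell was lower in Id2Δ/Δ (0.105%) than in Id2+/+ (0.161%). The median S100a8 share was higher in Id2Δ/Δ (1.34% against 1.19%). Without the cells marked by Scrublet S100a8 was at 2.13 and S100a9 at 3.41, and without the cell with most member UMIs of each library at 1.75 and 2.48.

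The secondary granule genes together were at a ratio of 2.18 (2.07 to 2.29), from 4153 CPM in Id2+/+ to 9043 CPM in Id2Δ/Δ. Ngp was at 1769 and 3878 CPM (ratio 2.19, 2.03 to 2.37), Camp at 1806 and 3996 CPM (2.21, 2.05 to 2.39), Ltf at 262 and 641 CPM (2.45, 2.0 to 3.02) and Lcn2 at 316 and 527 CPM (1.67, 1.37 to 2.03). Ngp, Camp and Ltf, 3 of the 10 members, were thus 2-fold or more higher in Id2Δ/Δ, where 2.58% of all genes were. None was 2-fold or more lower, where 4.4% of all genes were, and 6.98% of genes were past 2-fold in either direction.

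This direction rested on the secondary-rich cells, of which a single one gave most of the Id2+/+ value. The ratio was 11.3 without the cell with most member UMIs of each library and 19.7 without cells marked as doublets by Scrublet, which include the Id2+/+ secondary-rich cell. Without all 4 of them the secondary granule genes were lower in Id2Δ/Δ, at a ratio of 0.715 (0.592 to 0.863), with 217 UMIs in 26 cells and 237 in 37. Ngp was then at 0.338 (0.212 to 0.530), Camp at 0.873 (0.698 to 1.09) and Lcn2 at 0.611 (0.273 to 1.36), and Ltf had 1 and 4 UMIs (ratio 2.62, 0.259 to 129). The primary granule genes were at 1.14 (1.12 to 1.16) and the S100 genes at 1.29 (1.25 to 1.33) without these cells.

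Monocyte markers also differed between the neutrophil-like cells of the libraries. Of 12 such markers 7 had a UMI in Id2+/+ and 12 in Id2Δ/Δ, with summed levels of 219 and 530 CPM. A pair of Id2Δ/Δ cells held 7766 and 13994 CPM of them and only 0.352% and 0.0378% of their UMIs were from the members, whereas the other 65 cells had at most 1019 CPM of monocyte markers and from 3.2% to 47.2% from the members. Without this pair the primary granule genes were at a ratio of 1.15 and the S100 genes at 1.55. Megakaryocyte markers summed to 80.1 and 398 CPM in the neutrophil-like cells, and their part in the ratios was not tested.

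**Figure D4:**
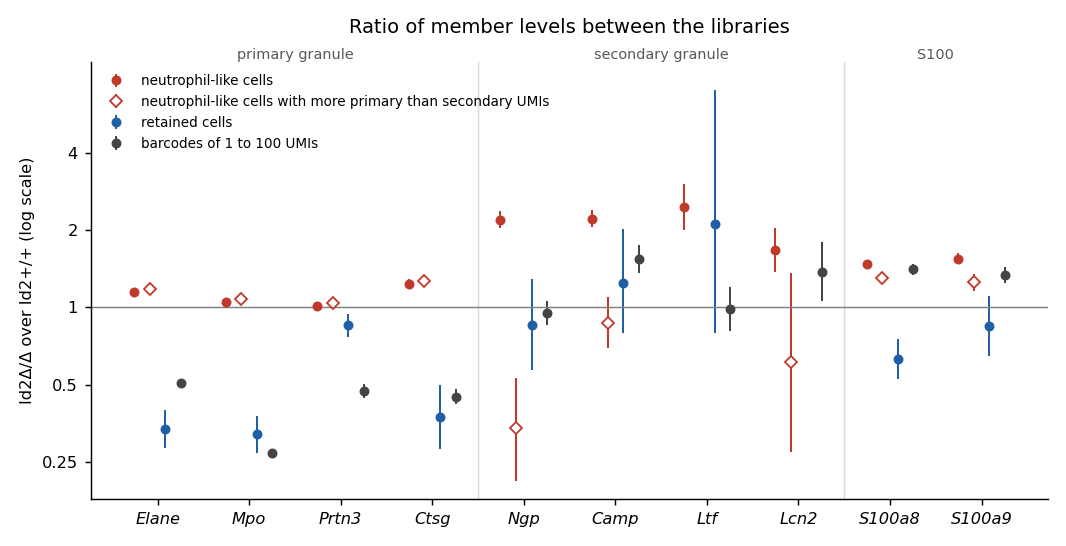
Level in Id2Δ/Δ over level in Id2+/+ (log scale) for each member with at least 20 UMIs, in neutrophil-like cells, in neutrophil-like cells with more primary than secondary granule UMIs, in retained cells and in barcodes of 1 to 100 UMIs, with 95% counting intervals. In neutrophil-like cells Ngp moves from 2.19 to 0.338 when the secondary-rich cells are left out, and in retained cells Elane, Mpo and Ctsg lie between 0.322 and 0.374 while Prtn3 lies at 0.851.

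In the cells retained as HSCs, Prtn3 was the highest of the members in both libraries, at 400 CPM (369 to 434, 585 UMIs) in Id2+/+ and 341 CPM (322 to 360, 1229 UMIs) in Id2Δ/Δ. Mpo was at 227 and 72.9 CPM and Elane at 215 and 72.4 CPM. S100a8 was at 142 and 89.3 CPM, Ctsg at 71.9 and 26.9 CPM and S100a9 at 58.9 and 49.6 CPM. The secondary granule genes were lowest, between 2.22 CPM for Lcn2 in Id2Δ/Δ and 26 CPM for Ngp in Id2+/+. In the neutrophil-like cells Prtn3 had stood below Elane, S100a8 and Mpo, so its place in the order differed between these kinds of cell.

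Erythroid-like cells, which should lack all 10 gene products, were set beside the retained cells. In them Elane was at 200 CPM in Id2+/+ and 63.2 CPM in Id2Δ/Δ, Mpo at 216 and 62.7 CPM and Ctsg at 70.7 and 22.3 CPM, close to the retained cells. S100a8 was at 97.9 CPM against 142 CPM in the retained cells in Id2+/+, and at 84.7 against 89.3 CPM in Id2Δ/Δ. Prtn3 was at 82.9 and 26.3 CPM. The erythroid-like cells were deeper, with median depths of 33769.5 and 38755 UMIs against 6615 and 9038.5, so like CPM is not a like number of molecules per droplet. Per cell there were 6.36 and 2.40 Elane UMIs in erythroid-like and 1.52 and 0.717 in retained cells, and 2.64 and 1 Prtn3 UMIs in erythroid-like and 2.84 and 3.38 in retained cells. The retained over erythroid-like ratio of Prtn3 was 4.83 (3.95 to 5.95) in Id2+/+ and 13 (11 to 15.3) in Id2Δ/Δ, while that of the other 9 members together was 1.13 (1.03 to 1.23) and 1.14 (1.07 to 1.23). The median ratio over all genes with at least 20 UMIs was 1.25 and 1.26. Prtn3 was the one member 2-fold or more higher in retained cells, of 8 members with at least 20 UMIs in Id2+/+ and of 10 in Id2Δ/Δ, where 29.9% and 31.2% of all such genes were. S100a8 was at 1.45 (1.16 to 1.81) in Id2+/+ and 1.05 (0.916 to 1.21) in Id2Δ/Δ, and the intervals of Elane, Mpo and Ctsg included 1 in both libraries.

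Shares of cells with a UMI showed the same after depth was made equal. Prtn3 had a UMI in 181 of 206 retained Id2+/+ cells (87.9%) and 326 of 364 Id2Δ/Δ cells (89.6%) and in 81.8% and 59.8% of erythroid-like cells. When each cell was thinned to 5700 UMIs in 20 random draws, which left out 56 retained Id2+/+ cells and 0 Id2Δ/Δ cells, Prtn3 was found in 80.7% to 86.0% and 76.7% to 81.6% of retained cells. In erythroid-like cells it was found in 25.6% to 51.2% and 11.2% to 19.5%. Elane was found in 66.0% to 75.3% and 31.9% to 36.8% of retained cells, within its range in erythroid-like cells of 53.5% to 76.7% and 24.3% to 39.1%. Its retained level in Id2Δ/Δ was 7.98% (7.01 to 9.06) of that in barcodes of 1 to 100 UMIs, against 5.76% for haemoglobin genes, and after the subtraction described below 9.15% and 27.8% of its UMIs were left.

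The proportions of the members to one another tell the same cells apart. For each UMI of Elane there were 0.374 and 0.330 UMIs of Prtn3 in the neutrophil-like cells, 0.414 and 0.416 in the erythroid-like cells and 0.422 and 0.396 in the barcodes of 1 to 100 UMIs. In the retained cells there were 1.86 (1.62 to 2.14) and 4.71 (4.12 to 5.40), and in the megakaryocyte-like cells 0.675 (0.521 to 0.872) and 1.97 (1.42 to 2.74). The proportion of Ctsg to Elane stayed between 0.282 and 0.407 in the neutrophil-like, erythroid-like and retained cells and the lowest barcodes of both libraries. Mpo to Elane was 0.50 and 0.459 in neutrophil-like cells, but 1.05 and 1.01 in retained cells and 1.08 and 0.993 in erythroid-like cells. It was 1.57 (1.53 to 1.62) and 0.841 (0.801 to 0.884) in barcodes of 1 to 100 UMIs, so in the lowest barcodes these genes were not in the proportion of the captured neutrophil-like cells.

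Among the retained cells Prtn3 was spread over many cells, and it was highest in the 3 clusters with the highest HSC markers. It was at 417 CPM in a cluster of 196 Id2+/+ cells, with a UMI in 89.8% of them, and at 434 and 429 CPM in clusters of 139 and 117 Id2Δ/Δ cells, with a UMI in 94.2% and 93.2%. Both Id2Δ/Δ clusters also had genes of other cell types among their leading genes, named here after their values were seen. Vpreb3, Vpreb1 and Igll1, genes of B cell precursors, were among the leading genes of the cluster of 139 Id2Δ/Δ cells, which passed 0 B cell markers. Cd74, H2-Aa, H2-Eb1 and H2-Ab1, genes of antigen presentation, were among those of the cluster of 117, which passed 1 dendritic cell marker. Lower levels were found in a cluster of 68 Id2Δ/Δ cells (157 CPM) and in a cluster led by cell cycle genes, at 191 CPM in 9 Id2+/+ cells and 220 CPM in 40 Id2Δ/Δ cells. The cluster of 68 was led by genes that include the platelet and megakaryocyte genes Itga2b, Gp1bb and Gp9, named here after their values were seen, and passed 3 megakaryocyte markers, fewer than the 4 needed for a name. Its HSC markers had a mean log2 fold of -0.32 against the other cells. No retained cell held more than 15 Prtn3 UMIs. In the clusters of 196, 140 and 117 cells all but 1 cell came from a single library, so cluster and library cannot be told apart there.

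Against barcodes of 1 to 100 UMIs of the same library, the retained cells had 52.9% (48.4 to 57.8) of the Prtn3 level in Id2+/+ and 94.9% (87.8 to 103) in Id2Δ/Δ. The other 9 members together had 11.3% (10.6 to 12) and 9.29% (8.78 to 9.83). Haemoglobin genes, which HSCs should lack, had 10.9% and 5.76%. Of the 10 members, 9 were 2-fold or more lower in the retained cells in both libraries, where 11.6% and 8.31% of all genes were, and Prtn3 was the exception. The profile of these barcodes, scaled on haemoglobin, was then subtracted from the retained cells. A gene that fell below 0 was set to 0. This left 79.4% and 93.9% of the Prtn3 UMIs and 15.2% and 38.0% of those of the other 9. In Id2+/+ Mpo, Ctsg and Ltf were set to 0, which raises the 15.2%.

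**Figure D5:**
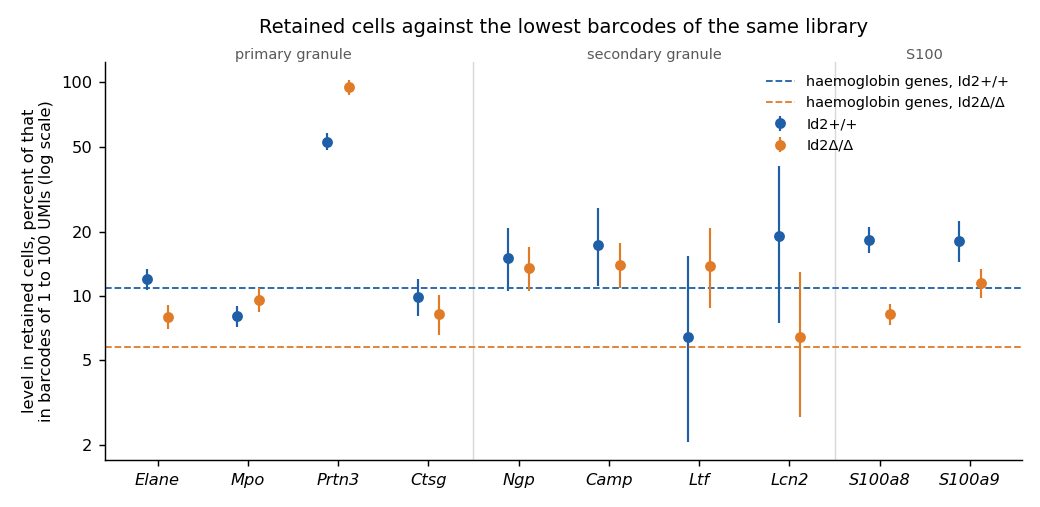
Level of each member in retained cells as a percent of its level in barcodes of 1 to 100 UMIs of the same library (log scale), with 95% counting intervals and dashed lines for haemoglobin genes (10.9% in Id2+/+ and 5.76% in Id2Δ/Δ). Prtn3 lies at 52.9% and 94.9%, and each of the other 9 members lies at or below 19.1%.

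Between genotypes, the retained Id2Δ/Δ cells had lower levels of Elane (ratio 0.337, 0.285 to 0.398), Mpo (0.322, 0.273 to 0.380), Ctsg (0.374, 0.281 to 0.498) and S100a8 (0.630, 0.528 to 0.754). Elane, Mpo and Ctsg, 3 of the 9 members with at least 20 UMIs, were 2-fold or more lower, where 4.86% of all genes were, and 0 were 2-fold or more higher, where 1.18% were. Elane, Mpo, Ctsg and S100a8 had intervals above 1 in the neutrophil-like and below 1 in the retained cells, 4 of 9 members with at least 20 UMIs in both, where 0.338% of 5031 genes did. These intervals narrow as the count of a gene rises. The median log2 ratio was -0.25 for the members and -0.09 for all genes. In erythroid-like cells Elane was at 0.316, Mpo at 0.290, Prtn3 at 0.318 and Ctsg at 0.315, 4 of 9 members against 4.77% of genes, whereas S100a8 was at 0.865 (0.716 to 1.05). Megakaryocyte-like cells had 3 of 7 lower against 6.03%. The other 9 members together were at 0.476 (0.440 to 0.516) in the retained cells, and at 1.13 once the profile of the lowest barcodes was subtracted. Genes that fell below 0 in Id2+/+ enter that sum as 0, so the 1.13 depends on this floor. After subtraction Elane was at 22.1 CPM in Id2+/+ and 21.3 CPM in Id2Δ/Δ (ratio 0.968) and S100a8 at 64.4 and 28.2 CPM (0.438). Mpo and Ctsg were at 30.7 and 8.49 CPM in Id2Δ/Δ. In Id2+/+ the scaled profile exceeded their counts and they were set to 0, so no genotype difference can be read from them. There the lowest barcodes had 1.57 UMIs of Mpo per UMI of Elane, against 1.05 in the retained cells.

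Prtn3 was at a ratio of 0.851 (0.771 to 0.941) in the retained cells, nearer to 1 than Elane, Mpo and Ctsg as counted. After subtraction Elane was at 0.968, which rests on 28.7 of 314 UMIs in Id2+/+ and 72.6 of 261 in Id2Δ/Δ and has no interval. The Prtn3 ratio became 1.12 (1.01 to 1.24) with coarser clusters (resolution 0.5 in place of 1), 0.952 after subtraction and 1.0 (0.903 to 1.11) without the cluster of 68 Id2Δ/Δ cells with megakaryocyte markers. Different clusters held most of the retained cells of each library. Ngp (0.853, 0.573 to 1.29), Camp (1.25, 0.792 to 2.02), Ltf (2.11, 0.796 to 7.02) and S100a9 (0.843, 0.648 to 1.1) had intervals that included 1, and Lcn2 had 15 UMIs in all. With all barcodes of at least 1000 UMIs and 500 genes S100a9 was at 1.27 (1.0 to 1.64) and S100a8 at 0.914 (0.777 to 1.08).

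The barcodes of 1 to 100 UMIs carried the members in different amounts in the libraries. Here RNA of many cells is mixed, and fewer cells of a type and less RNA per cell cannot be told apart. Primary granule genes were lower in Id2Δ/Δ, at 6093 CPM in Id2+/+ and 2356 CPM in Id2Δ/Δ (ratio 0.387, 0.377 to 0.396), with Mpo at 2816 and 762 CPM (0.271), Elane at 1791 and 906 CPM (0.506), Prtn3 at 757 and 359 CPM (0.475) and Ctsg at 729 and 328 CPM (0.450). S100 genes were higher, at 1098 and 1521 CPM (1.39, 1.33 to 1.44), with S100a8 at 1.41 (1.34 to 1.47) and S100a9 at 1.33 (1.24 to 1.44). The secondary granule genes were at 1.16 (1.08 to 1.25), with Camp at 1.54 (1.36 to 1.75), Lcn2 at 1.38 (1.06 to 1.80), Ltf at 0.987 (0.809 to 1.2) and Ngp at 0.950 (0.852 to 1.06). Mpo, Prtn3 and Ctsg, 3 of the 10 members, were 2-fold or more lower, where 12.8% of all genes were. The median log2 ratio was -0.05 for the members and -0.34 for all genes, and 4 of the 10 members were above 1, where 24.6% of all genes were.

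The make-up of the shallow barcodes changed with their depth in both libraries. In Id2Δ/Δ barcodes of 1 to 10 UMIs, then of up to 100, 500 and 2000 UMIs and up to the threshold, S100 genes were at 1788, 1503, 2117, 3670 and 7218 CPM. Secondary granule genes were at 508, 403, 788, 290 and 3136 CPM. Primary granule genes over the same steps were at 2371, 2355, 1889, 668 and 869 CPM. In Id2+/+ the primary level went from 5256 and 6119 CPM to 4972, 3692 and 3530 CPM, and the S100 level was 1175, 1095, 874, 1477 and 130 CPM. The secondary level there was 344, 354, 305, 82.0 and 70.8 CPM. The Id2Δ/Δ steps over 100 UMIs included the 11 member-rich barcodes.

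Other genes of the granulocyte program gave context for the neutrophil-like cells. Of 25 other granule protein genes, 16 had at least 20 UMIs, 15 of these were at a ratio above 1, where 48.8% of all genes were, and 4 were 2-fold or more higher in Id2Δ/Δ, where 2.58% were, with a median log2 ratio of 0.43 against -0.01 for all genes. Over both libraries the highest were Srgn (3587 CPM), Lyz2 (1566 CPM) and Serpinb1a (1442 CPM), the gene of an inhibitor of neutrophil serine proteases. The highest ratios were those of Lyz2 (2.61, 2.32 to 2.93) and Ctsc (2.49, 1.26 to 5.34), the gene of the cathepsin that activates the granule proteases, and the lowest those of Gusb (0.949) and Srgn (1.03). The 4 secondary-rich cells held 864 of the 1861 Lyz2 UMIs, 634 of the 775 of Chil3 and 37 of the 46 of Cd177. Without these cells Lyz2 was at 5.07 (4.17 to 6.22) and Chil3 at 1.27 (0.886 to 1.84), and Cd177 had 1 and 8 UMIs. The pair of cells with high monocyte markers held 686 Lyz2 and 22 of 54 Ctsc UMIs, and without them Lyz2 was at 1.46 (1.29 to 1.66) and Ctsc at 1.26 (0.579 to 2.88). Of 16 genes 15 were above 1 and 1 was 2-fold or more higher without this pair. Without the secondary-rich cells 13 of 15 were above 1 and 2 were 2-fold or more higher, with Cybb, the gene of an NADPH oxidase subunit, moving from 1.14 (0.710 to 1.86) to 0.792 (0.413 to 1.54).

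Of 22 neutrophil maturation genes, 10 had at least 20 UMIs, 7 were above 1 and 1 was 2-fold or more higher, with a median log2 ratio of 0.32, against the same 48.8%, 2.58% and -0.01 for all genes. Ms4a3 (3043 CPM), Ly6c2 (3026 CPM) and Wfdc21 (1168 CPM) were the most abundant, Ltb4r1 (2.38) and Ifitm6 (1.64) had the highest ratios and Csf3r (0.636), the gene of the G-CSF receptor, the lowest. Of 111 Ifitm6 UMIs 104 lay in the secondary-rich cells, which left 1 and 6 in the others. Of 11 granulocyte transcription factors, 10 had at least 20 UMIs, 6 were above 1 and 1 was 2-fold or more higher, with a median log2 ratio of 0.27, again against 48.8%, 2.58% and -0.01. Cebpe was at 1.60 (1.33 to 1.95), Gfi1 at 1.14 (0.819 to 1.60), Spi1 at 0.948 (0.772 to 1.17) and Cebpa, which acts early in granulocyte commitment, at 0.545 (0.352 to 0.840). The most abundant were Cebpe (448 CPM), Spi1 (333 CPM) and Cebpb (221 CPM). Irf8, with 1 UMI in Id2+/+ and 19 in Id2Δ/Δ, was at 12.1 (1.92 to 502) and Cebpe next. Its UMIs lay in 4 cells, 18 of the 20 in the pair with high monocyte markers, and 1 and 1 were left without this pair, which took the factors 2-fold or more higher from 1 to 0. Runx1 at 0.636 was second lowest after Cebpa.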

How the data were processed

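HSCs of 1 Mx1-Cre Id2+/+ and 1 Mx1-Cre Id2Δ/Δ pool were profiled. The authors deposited raw UMI counts per gene and barcode as 1 count matrix per library. The submitters' processing notes name Cell Ranger 2.2.0 and mm10; filters before deposit are not given there. A barcode was used as a cell if its UMIs reached 10% of those at percentile 99 among the 1000 deepest of its library and fewer than 10% were mitochondrial. Cells were clustered in scanpy 1.11.5 without the members (2000 variable genes, 20 components, 15 neighbours, Leiden resolution 1, leidenalg 0.10.2). A cluster took a cell type's name when 4 or more of its markers passed a log2 fold of 1 and were found in 25% or more of the cells, with HSC markers lower on average; those left were retained as HSCs. Doublets were not removed, except in an alternative with Scrublet. Counts were summed per class and library (total UMIs 8612217 and 17140713). Poisson, conditional ratio and Clopper-Pearson intervals (scipy 1.17.1), tested on simulated counts, and limits of 3 counts for a 0 cover counting error only. Genes counted as 2-fold apart had at least 20 UMIs over both classes compared, and 0.5 UMI was added to each side for that count and for medians. Genes named were the members; the 3 most abundant, 2 highest and 2 lowest ratios of each list; Cebpa, Cebpe, Gfi1 and Spi1; and the 3 genes most correlated with the primary and with the secondary sum. One gene that this rule names is not reported here. The members and lists were chosen with earlier results of these data known. Alternatives in cell calling, clustering, doublets, scaling, filters and depth limits are given in the closing section.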

Additional observations from a re-analysis of the deposited data

Results flagged for a closer look

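Of the 10 members, 4 were higher in Id2Δ/Δ in the neutrophil-like cells and lower in Id2Δ/Δ in the retained cells, each with intervals on opposite sides of 1, as 17 of 5031 genes (0.338%) had. Of the 10 members 9 had at least 20 UMIs in both. The ratio of Id2Δ/Δ to Id2+/+ was 1.14 in neutrophil-like and 0.337 in retained cells for Elane, and 1.05 and 0.322 for Mpo. It was 1.23 and 0.374 for Ctsg, and 1.48 and 0.630 for S100a8, whose retained ratio of 0.914 (0.777 to 1.08) with all barcodes of at least 1000 UMIs and 500 genes no longer had an interval under 1. With 1 library per genotype the difference between the kinds of cell was not tested. In the barcodes of 1 to 100 UMIs of the same libraries the ratios were 0.506, 0.271, 0.450 and 1.41. After subtraction of the profile of these barcodes, scaled on haemoglobin, the retained ratio was 0.968 for Elane and 0.438 for S100a8. That of Elane rests on 28.7 UMIs left in Id2+/+ and 72.6 in Id2Δ/Δ. Mpo and Ctsg were set to 0 in Id2+/+, where the scaled profile exceeded their counts.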

How the results depend on the processing

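No paired analysis was possible because there was 1 library per genotype. Of the summary values recomputed under an alternative, 106 stayed within their counting interval, 43 moved outside it and 3 changed direction; of the values for single genes, 161, 34 and 3 did. A change of direction was counted only where the interval of the reported ratio excluded 1, which leaves out S100a9 in the retained cells (0.843, and 1.27 with all barcodes of at least 1000 UMIs and 500 genes). Leaving out the secondary-rich cells, or the 2 cells with most monocyte markers, keeping megakaryocyte-like cells among the retained ones, leaving out the retained cluster of 68 cells and counting member-rich barcodes at 1 threshold in both libraries were chosen after seeing the data. In the neutrophil-like cells the secondary granule ratio of 2.18 became 3.07 with all barcodes of at least 1000 UMIs and 500 genes, 19.7 without cells marked by Scrublet (2 and 1 cells, 1 of each library neutrophil-like), 11.3 without the cell with most member UMIs of each library and 0.715 without the secondary-rich cells, which took Ngp to 0.338, Camp to 0.873 and Lcn2 to 0.611. In that order the S100 ratio of 1.5 became 1.90, 2.35, 1.88 and 1.29, and it was 1.57 with TMM scaling and 1.55 with the members kept in clustering or without the 2 monocyte marker cells. The primary ratio of 1.11 became 1.15 under each of these last settings, 1.17 with TMM, 1.13 with CPM of UMIs outside members and haemoglobin and 1.14 without the secondary-rich cells. The member share of 7.11% in Id2+/+ became 6.16% without Scrublet-marked or secondary-rich cells. In Id2Δ/Δ, 9.12% became 10.4% with barcodes of at least 1000 UMIs, 9.43% with members kept or without the monocyte marker cells, 9.40% without Scrublet-marked cells and 7.22% without the secondary-rich cells. The 357 genes 2-fold or more apart became 1409 with at least 5 UMIs and 63 with at least 100, a filter on fewer or more genes. In the retained cells the ratio of the other 9 members, 0.476, became 0.552 with barcodes of at least 1000 UMIs and 1.13 after subtraction, and that of Prtn3, 0.851, became 1.12 at resolution 0.5, 0.952 after subtraction and 1.0 without the cluster of 68 cells. The 1.13 depends on the floor of 0 for single genes in Id2+/+. Mpo and Ctsg were set to 0 there and so gave no ratio after subtraction. The Prtn3 level relative to the lowest barcodes, 94.9% in Id2Δ/Δ, became 104% with barcodes of at least 1000 UMIs, 118% and 107% at resolutions 0.5 and 2, 73.7% against barcodes of 1 to 10 UMIs 112% without the cluster of 68 cells and 79.8% with megakaryocyte-like cells kept, which took 52.9% in Id2+/+ to 42.7%. That of the other 9, 9.29% in Id2Δ/Δ, became 11.1% with barcodes of at least 1000 UMIs and 8.68% against 1 to 10 UMIs, where 11.3% in Id2+/+ became 12.8%. In barcodes of 1 to 10 UMIs the genotype ratio of all members, 0.568, was 0.689, of primary genes 0.451, of secondary genes 1.48 and of S100 genes 1.52; with 1 to 50 UMIs all members were at 0.591 and primary genes at 0.403. Except where its construction shows it, the cause was not tested. The number of neutrophil-like cells, 27 and 40, limits every statement on them.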
